A study of Mus musculus with 12 samples.

Results

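The comparison described here asks how the response of cardiac fibroblasts to MCB-613-10-1 differed between 4 h and 24 h of treatment. It used all 12 of the 12 libraries of the series, and 16341 of the 29030 genes present in either deposited table had enough counts to be tested. The cells were primary cardiac fibroblasts from hearts of C57BL/6 mice, grown in medium with 10% serum and antibiotics. Groups of 3 libraries received ethanol vehicle for 4 h, 6 µM MCB-613-10-1 for 4 h, ethanol vehicle for 24 h, or 6 µM MCB-613-10-1 for 24 h, and the labels name no transgene. MCB-613-10-1 is a derivative of MCB-613, and the series names NRF2, steroid receptor coactivators and protection against fibrosis as its subjects. Nothing in the labels states if replicates came from different cultures or animals. All p-values thus refer to the spread among these samples alone, and that spread may be technical.

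Cardiac fibroblasts make and remodel the collagen matrix of the heart, and can turn into contractile, matrix-rich myofibroblasts. NRF2 is held in the cytoplasm by KEAP1 and, when electrophiles or oxidants modify KEAP1, enters the nucleus and drives glutathione, thioredoxin and heme-degrading genes. Misfolded proteins release HSF1, which drives chaperones, while amino acid shortage or stress on the endoplasmic reticulum raises translation of ATF4, which drives amino acid transport, tRNA charging and its own feedback genes. Such programs can switch off once the stress is met, persist, or grow, and the vehicle cultures against which they are measured can also change over a day.

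For each gene, the response at a time was the log2 ratio of treated over vehicle, and the interaction was the 24 h response minus the 4 h response. The same number equals the 4 h to 24 h change in treated libraries minus that in vehicle libraries. Levels are given as CPM, read counts scaled to a common library size over all 12 libraries. The threshold for a call was an adjusted p under 0.05 in edgeR's quasi-likelihood test with Benjamini-Hochberg adjustment over all tested genes. Genes called at both times in 1 direction without a called interaction are termed sustained. Genes called at 4 h whose interaction was called in the same direction are termed amplified. Those whose interaction was called against the 4 h direction are termed faded where the 24 h response was not called or kept its sign, and reversed where it was called with the opposite sign. Late genes were called at 24 h and in the interaction but not at 4 h. These classes are sorted by the measured responses and are therefore descriptions. Where genes are ranked by size within a class, the ranking covers protein-coding genes with a mean of at least 5 CPM in a group (the naming rule), and genes outside it can have larger values.

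Library totals were 26869195 to 31596784 counts for 4 h and 25016754 to 34877090 counts for 24 h. The correlation of log2 CPM over genes was 0.986 to 0.992 within groups, 0.953 to 0.970 between vehicle libraries of the 2 times, and 0.943 to 0.955 between treated libraries of the 2 times. The 18S ribosomal RNA row took 0.543% to 1.10% of the counts at 4 h and 2.27% to 4.09% at 24 h, and harvest time and any difference in preparation cannot be told apart. The group names of the deposited 24 h comparison carry a prefix, KD, that those of the 4 h comparison lack. The sample labels do not explain it. The labelled cell type was checked on marker genes. Pdgfra, a receptor that marks cardiac fibroblasts and a gene picked after its values were seen, had 345, 304 and 324 CPM in vehicle and 269, 256 and 274 in treated libraries at 4 h, and 462, 413 and 485 in vehicle and 118, 113 and 84.9 in treated libraries at 24 h. It was expressed in every library and lowest in treated libraries of 24 h. Of 17 fibroblast identity genes 12 were lower and 3 higher at 24 h (35% and 33.7% of all genes). Of 8 cardiomyocyte markers 5 (Myh6, Tnni3, Actc1, Myl2 and Nppa) were too low to be tested, and all 8 together summed to 12.8 to 32.7 CPM. Macrophage and leukocyte markers summed to 77.8 to 118.9 CPM at 4 h and to 391.5 to 463.7 CPM in vehicle libraries of 24 h, so RNA of other cell types was present.

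The response was wider and larger at 24 h than at 4 h. At 4 h 2198 genes (13.5% of those tested) were called and at 24 h 11230 (68.7%), and the median absolute response was 0.19 against 0.66 log2 units. The interaction was called for 8796 genes (53.8%), of which 4363 (26.7%) were higher and 4433 (27.1%) lower at 24 h. It reached at least 1 log2 unit in size for 1578 of the former and 2260 of the latter. Of the 2198 genes called at 4 h, 1940 were called again at 24 h, and 1804 of these kept their direction.

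Among genes called at 4 h, amplification was the most frequent course. The amplified class held 1271 genes (7.78% of those tested), 656 rising (4.01%) and 615 falling (3.76%), and the median ratio of the 24 h to the 4 h log2 response was 3.05 and 3.06. The sustained class held 515 genes (3.15%), 246 rising (1.51%) and 269 falling (1.65%). The 95% interval of the interaction lay within 0.5 log2 units of 0 for 140 of the 246 and 132 of the 269, and for the other sustained genes a difference of that size was not resolved. Faded genes numbered 153 (0.936%), 65 that had risen (0.398%) and 88 that had fallen (0.539%), and 13 and 5 of them were still called at 24 h. Reversed genes numbered 136 (0.832%), of which 47 (0.288%) went from higher to lower and 89 (0.545%) from lower to higher. Late genes were by far the most numerous, with 3382 rising and 3613 falling (20.7% and 22.1%). A further 2295 genes (14%), 1126 higher (6.89%) and 1169 lower (7.15%), were called at 24 h alone with no called interaction, so that they could not be assigned to an early or a late start. For 241 genes (1.47%) the interaction was called without a call at either time, and 123 (0.753%) were called at 4 h alone.

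The sizes of these classes rest on the 4 h calls and on scaling. When each response was fitted on its own 6 libraries the 4 h calls dropped to 529 higher and 569 lower, and the classes to 739 amplified, 230 sustained, 65 faded and 43 reversed genes. Without treated replicate 2 of 4 h there were 802 amplified, 277 sustained, 69 faded and 49 reversed genes, and without treated replicate 3 of 4 h 835, 303, 70 and 44. Reversed genes numbered 258 without treated replicate 1 of 4 h, and leaving out a library of 24 h gave 88 (vehicle replicate 1), 85 (vehicle replicate 3) and 90 (treated replicate 2). Scaling by library totals alone shifted the median interaction over all genes by -0.14 log2 units, and the share of higher among called interactions went from 49.6% to 40.0%. The same share fell from 48.2% to 31.0% among 4 h calls and from 49.1% to 38.1% among 24 h calls.

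**Figure D1:**
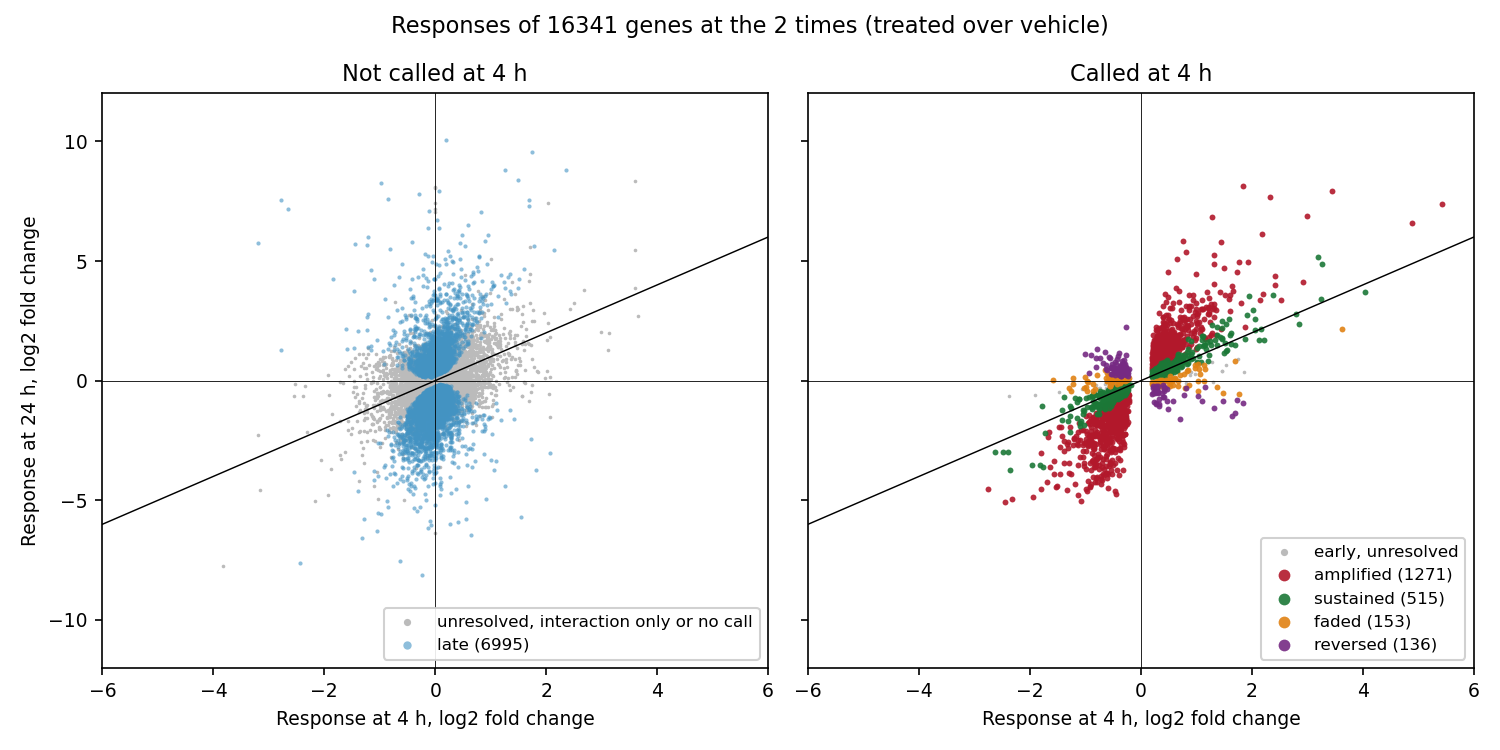
Drug response of each tested gene at 4 h (horizontal axis) against 24 h (vertical axis), both as log2 of treated over vehicle, on linear axes in log2 units. The left panel holds genes not called at 4 h and the right panel genes called at 4 h, coloured by class, and the diagonal line marks equal responses. Amplified genes lie farther from 0 on the vertical than on the horizontal axis, sustained genes follow the diagonal, most faded genes lie near 0 on the vertical axis and reversed genes lie at the upper left and lower right.

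Both arms contributed to the interaction. Vehicle libraries alone changed between 4 h and 24 h for 8881 genes (54.3%) and treated libraries for 10111 (61.9%). Among the 8796 called interactions, only the treated change was called for 2904 genes (33.0%) and only the vehicle change for 1928 (21.9%). Treated and vehicle libraries both changed in opposite directions for 2294 (26.1%), and both changed the same way by unequal amounts for 1494 (17.0%). The treated change was the larger in size for 61.4% of called interactions. An interaction therefore does not say by itself in which arm RNA changed, and the changes of both arms are given for the gene groups that follow.

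Promoter stretches are shown for 8 genes of the response programs, chosen because each holds the short sequence that the regulator of its program is known to bind. They are not typical of their lists. Most windows held the motif in the mitosis list, and most lacked it in the ATF4, NRF2 target, heat shock, interferon and MAPK feedback lists. They come from RefSeq windows of 300 bases on GRCm38.p6, which is not the build of the count tables. Capitals mark the motif, searched on both strands. TGATGNAA is the site of ATF4 with a CEBP partner, TGACNNNGC the core of the antioxidant response element of NRF2 and small MAF proteins, and the heat shock element of HSF1 was read as GAA, TTC and GAA with gaps of 2 free bases. The interferon response element was read as a pair of GAAA with a gap of 2 free bases, TTTGAA is the cell cycle homology region bound by the DREAM complex and B-MYB, and the serum response element was read as CCTTA joined to TATGG. Among all 32851 windows these were present in 3.97%, 12.4%, 0.603%, 3.44%, 17.9% and 0.0731%. A match is a description of the sequence and not evidence of binding.
Chac1, chr2:119351029-119351076, plus strand: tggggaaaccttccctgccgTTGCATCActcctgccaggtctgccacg
Slc7a11, chr3:50443633-50443699, minus strand: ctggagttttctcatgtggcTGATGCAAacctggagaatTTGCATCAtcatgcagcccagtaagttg
Gclm, chr3:122245403-122245451, plus strand: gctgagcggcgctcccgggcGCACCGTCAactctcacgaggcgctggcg
Hspe1, chr1:55088039-55088096, plus strand: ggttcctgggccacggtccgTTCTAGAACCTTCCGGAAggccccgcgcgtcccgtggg
Ifit1, chr19:34640765-34640833, plus strand: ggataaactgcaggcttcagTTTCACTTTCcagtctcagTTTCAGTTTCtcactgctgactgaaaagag
Cdk1, chr10:69352913-69353003, minus strand: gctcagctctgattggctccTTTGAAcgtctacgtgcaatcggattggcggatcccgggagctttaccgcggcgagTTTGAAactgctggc
Cdc20, chr4:118437344-118437381, minus strand: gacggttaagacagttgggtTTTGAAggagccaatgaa
Dusp5, chr19:53529053-53529102, plus strand: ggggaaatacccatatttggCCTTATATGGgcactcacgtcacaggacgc
In the Hspe1 stretch 2 matches of the heat shock element overlap. The stretches of Slc7a11, Ifit1 and Cdk1 each hold 2 separate matches.

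Amplified was the largest class among the listed NRF2 targets. Of the 38 listed NRF2 targets, 26 were called higher and none lower at 4 h (background 6.48% and 6.97%), and 30 were higher and 4 lower at 24 h (background 33.7% and 35%). The interaction was higher for 23 and lower for 5, beside 26.7% and 27.1% of all genes, and its median was 0.51 against -0.000367 over all tested genes. At an unadjusted p under 0.05 edgeR found 1 target lower at 4 h, and DESeq2 with adjusted p called 0. By class, 18 targets were amplified, 5 sustained, 5 late rising, 3 late falling, 1 faded and 1 reversed.

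Hmox1, which encodes the heme-degrading enzyme heme oxygenase 1 (ENSMUSG00000005413, GRCm39 chromosome 8, 75820249 to 75827217), had 1167, 1444 and 1163 CPM in vehicle and 6948, 6366 and 6787 in treated libraries at 4 h, and 535, 528 and 518 in vehicle and 10504, 10705 and 11133 in treated libraries at 24 h. The treated libraries lay above all vehicle libraries at both times, the treated level went up from 4 h to 24 h and the vehicle level went down. The response was 2.41 log2 units at 4 h and 4.35 at 24 h, with an interaction of 1.94 (SE 0.11, edgeR adjusted p = 1.43e-10). Slc7a11, the cystine transporter that feeds glutathione synthesis and that both NRF2 and ATF4 are known to drive, had 76.02, 54.03 and 52.3 CPM in vehicle and 340.5, 304 and 325 in treated libraries at 4 h, and 23.8, 22.8 and 20.6 in vehicle and 352, 377 and 357 in treated libraries at 24 h. Its treated libraries of 24 h lay slightly above those of 4 h, while its vehicle libraries of 24 h lay far below those of 4 h. The interaction of 1.61 (SE 0.16, edgeR adjusted p = 2.89e-07) thus went with a vehicle change of -1.44 and a treated change of 0.16 log2 units. Srxn1, which restores oxidised peroxiredoxins, went from a response of 2.52 to 3.36 log2 units. Sqstm1, the autophagy receptor p62 that also binds KEAP1, had the largest positive interaction of the list among genes that met the naming rule, at 2.23 (SE 0.11).

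For other NRF2 genes the interaction was near 0 or near the threshold. Pgd, a pentose phosphate enzyme that makes NADPH, had 237, 270.2 and 250.1 CPM in vehicle and 458, 468 and 478 in treated libraries at 4 h, and 298, 293 and 288 in vehicle and 564, 570.1 and 557 in treated libraries at 24 h. The treated libraries were higher at both times without overlap, and the interaction was 0.05 with a 95% interval from -0.13 to 0.24. Nqo1, the quinone reductase often used to read NRF2 activity, had 123, 99.7 and 98.7 CPM in vehicle and 158, 128 and 158 in treated libraries at 4 h, and 124, 109 and 142 in vehicle and 202, 222 and 263 in treated libraries at 24 h, with all treated libraries above all vehicle libraries at each time. Its interaction of 0.41 (SE 0.17, edgeR adjusted p = 0.0623) was just short of the threshold, so it counts as sustained although its 24 h response (0.88) was larger than that at 4 h (0.47). Gclm, a subunit of the rate-limiting enzyme of glutathione synthesis, lay just inside, with an interaction of 0.35 (SE 0.10, edgeR adjusted p = 0.00736). Under scaling by library totals its adjusted p was 0.115.

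G6pdx, which encodes the enzyme that opens the pentose phosphate pathway upstream of Pgd, reversed. It had 96.2, 114 and 114 CPM in vehicle and 138, 137 and 146 in treated libraries at 4 h, and 151, 147 and 154 in vehicle and 111, 105 and 96.6 in treated libraries at 24 h. Treated libraries were all above vehicle at 4 h and all below at 24 h. Its response went from 0.38 to -0.53 log2 units, an interaction of -0.91 (SE 0.11, edgeR adjusted p = 9.50e-07). Other exceptions of the list, chosen after their values were seen, were Idh1, Ugdh and Ephx1, enzymes of NADPH supply and detoxification, which fell late with interactions of -0.81, -0.32 and -0.74.

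The genes that regulate NRF2 changed their own balance between the times. Of 7 listed, 4 were higher at 4 h and all 7 at 24 h (6.48% and 33.7% of all genes). Called interactions numbered 5, all higher, beside 26.7% of all genes. In each of those 5 the treated level rose and the vehicle level fell. The small MAF partner Maff had 81.5, 138 and 121 CPM in vehicle and 136, 152 and 134 in treated libraries at 4 h, and 50.2, 56.02 and 52.03 in vehicle and 252, 246 and 271 in treated libraries at 24 h. At 4 h treated and vehicle libraries overlapped and at 24 h they did not, and the interaction was 1.97 (SE 0.20, edgeR adjusted p = 4.21e-06). Keap1, the repressor of NRF2, was sustained instead. It had 36.7, 44.2 and 44.03 CPM in vehicle and 50.2, 61.1 and 56.9 in treated libraries at 4 h, and 57.2, 57.9 and 56.8 in vehicle and 84.5, 81.5 and 82.4 in treated libraries at 24 h, so that both arms went up in parallel and the interaction was 0.10 (SE 0.12, edgeR adjusted p = 0.493). Nfe2l2, which encodes NRF2 itself, had an interaction of 0.21 (SE 0.10, edgeR adjusted p = 0.0677) and was called at 24 h alone.

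Most heat shock genes were amplified. Of 26 genes, 21 were called higher at 4 h and 25 at 24 h (6.48% and 33.7% of all genes). Among their interactions 24 were higher and 1 lower (26.7% and 27.1% of all genes). The median response went from 0.75 to 2.01 log2 units. By class 19 were amplified, 5 late, 1 sustained (Dnajb4, chosen after its values were seen) and 1 faded.

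Hspa1a and Hspa1b, near-identical copies of the inducible HSP70 gene whose reads cannot be assigned with certainty, had interactions of 1.93 and 1.71. Hspa1b had 43.1, 48.3 and 48.2 CPM in vehicle and 1246, 1545 and 1344 in treated libraries at 4 h, and 57.4, 59.02 and 56.9 in vehicle and 5563, 5624 and 5652 in treated libraries at 24 h. No group overlapped another arm, and the vehicle change of 0.31 was small beside the treated change of 2.03 log2 units. Cryab, a small heat shock protein that holds unfolded clients, had the largest interaction of the list. It had 215, 251 and 265 CPM in vehicle and 412, 435 and 429 in treated libraries at 4 h, and 184, 180.2 and 180.3 in vehicle and 1563, 1513 and 1678 in treated libraries at 24 h, and its interaction was 2.32 (SE 0.11, edgeR adjusted p = 1.12e-11).

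Chaperones differed in when they began to respond. Hspe1, the mitochondrial HSP10 chaperonin whose promoter stretch is shown above, had 125, 126 and 118 CPM in vehicle and 148, 116 and 126 in treated libraries at 4 h, and 144, 156 and 148 in vehicle and 489, 467 and 519.8 in treated libraries at 24 h. Treated and vehicle libraries overlapped at 4 h and were far apart at 24 h, with an interaction of 1.64 (SE 0.11, edgeR adjusted p = 1.57e-09). The 8 subunits of the cytosolic chaperonin TRiC showed a smaller and mostly late rise. All 8 interactions were higher (median 0.53), beside 26.7% of all genes, and 1 of the 8 was called at 4 h, beside 13.5%. Fkbp4, an HSP90 cochaperone of steroid receptors, went the other way and had 55.5, 89.4 and 90.4 CPM in vehicle and 121, 122 and 131 in treated libraries at 4 h, and 108, 115 and 106 in vehicle and 92.7, 89.5 and 96.02 in treated libraries at 24 h. It was above vehicle in every treated library at 4 h, and below in every treated library at 24 h without that difference being called (edgeR adjusted p = 0.136). Its interaction was -0.91 (SE 0.19, edgeR adjusted p = 0.00134).

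RNA of protein breakdown genes rose mostly after 4 h, with an early part in the proteasome. The proteasome degrades ubiquitin-tagged proteins, and all 34 listed subunits were higher at 24 h, against 11 at 4 h. Over all genes these shares were 33.7% and 6.48%. By class 10 subunits were amplified, 23 late and 1 sustained. The interaction was higher for 33 of 34 with a median of 1.23, beside 26.7% of all genes. For 22 of these 33 treated and vehicle libraries both rose but by unequal amounts. Psmb3, a core subunit, had 83.1, 109 and 104 CPM in vehicle and 126, 118 and 115 in treated libraries at 4 h, and 132, 140.3 and 131 in vehicle and 568, 536 and 611 in treated libraries at 24 h. The groups did not overlap at either time, and the treated level was 4.25 times the vehicle level at 24 h. Psmb3 was called at 4 h in 14 of 24 settings. Among 16 autophagy genes the interaction was higher for 14 and lower for 2 (26.7% and 27.1% of all genes), with a median of 0.99. Gabarapl1, which coats autophagosomes, had the largest value at 2.49 (SE 0.10), and Wipi1, which acts in their formation, had -0.51.

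**Figure D2:**
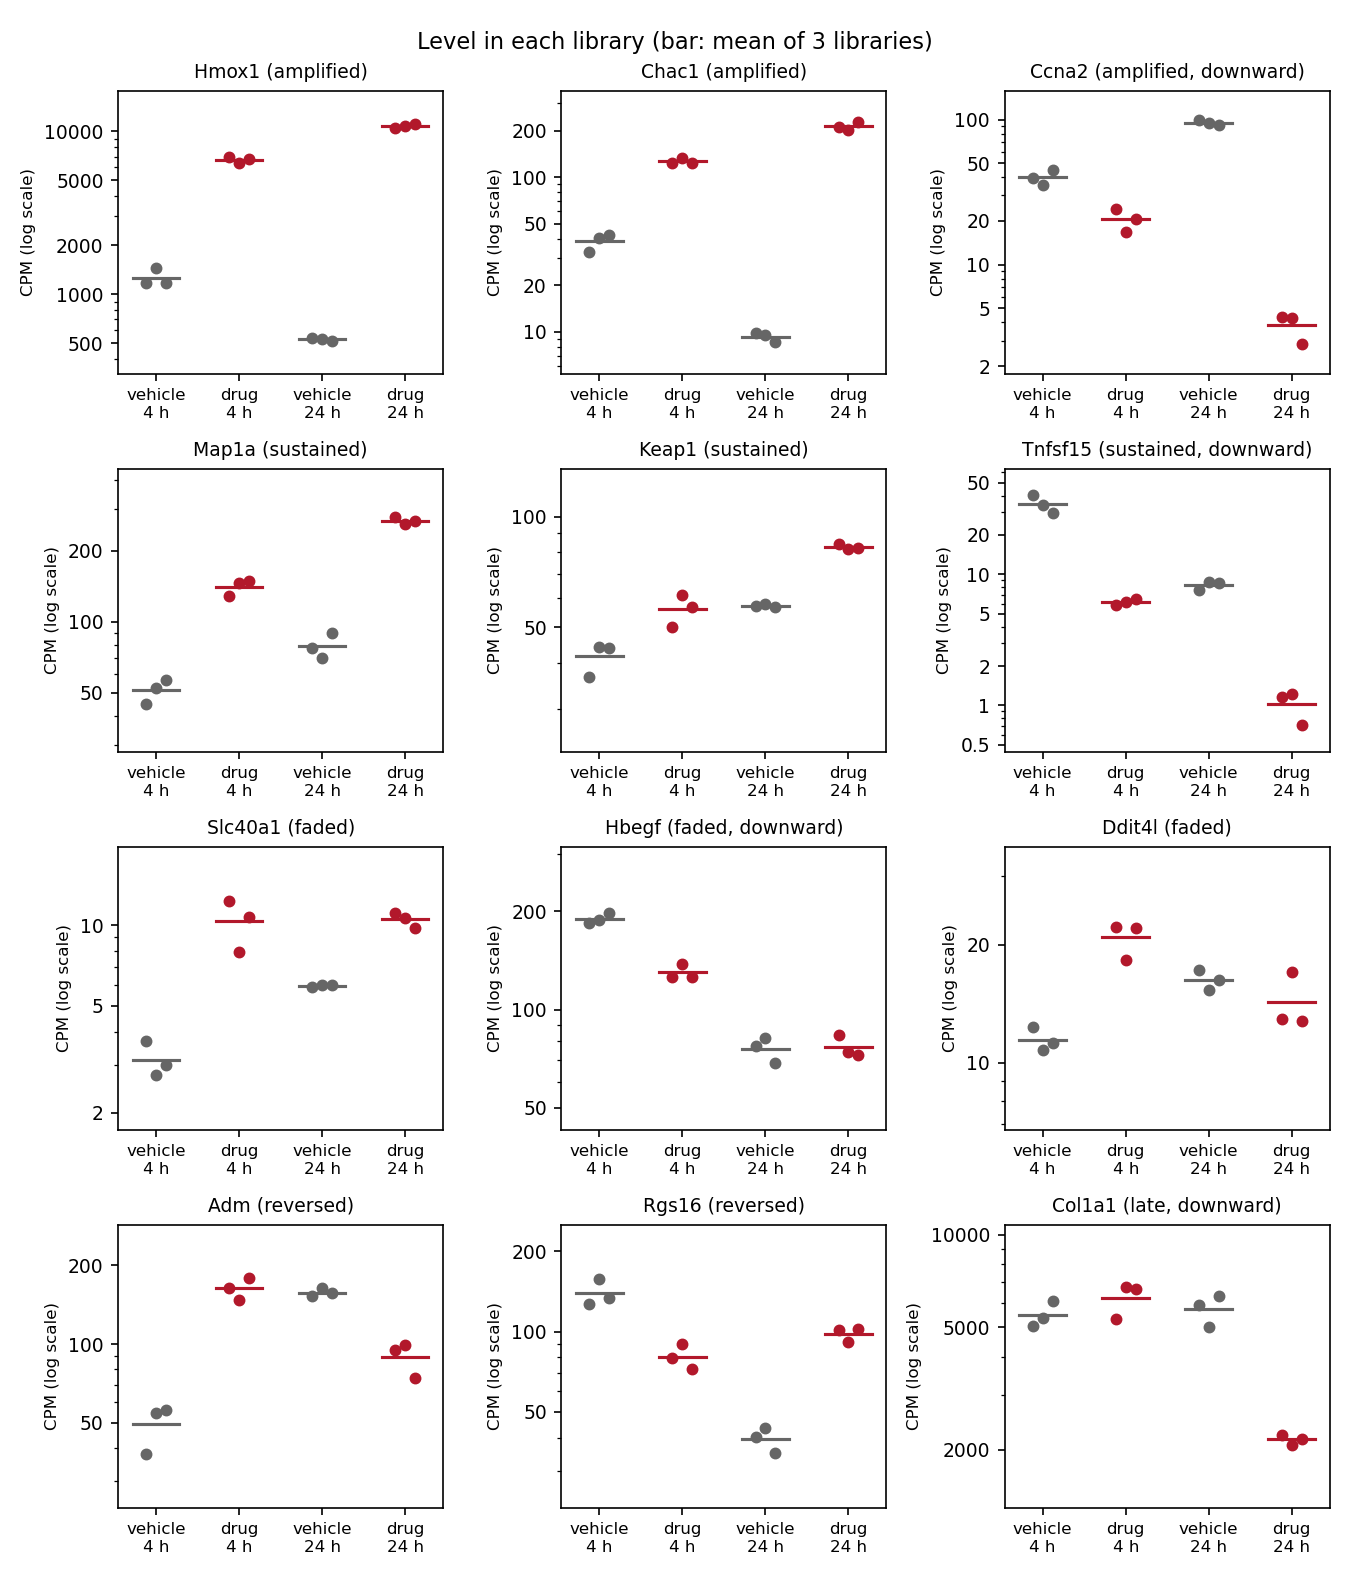
CPM of 12 genes in each of the 12 libraries, on a logarithmic axis, with vehicle and treated (drug) libraries at 4 h and 24 h as separate groups of 3 points and a bar at each group mean. Hmox1 and Chac1 show amplified rises and Ccna2 an amplified fall, Map1a, Keap1 and Tnfsf15 show sustained responses, Slc40a1, Hbegf and Ddit4l faded ones, Adm and Rgs16 reversed ones, and Col1a1 a late fall.

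The ATF4 program widened between the arms from both sides. Of 32 genes, 22 were higher at 4 h and 30 at 24 h (6.48% and 33.7% of all genes). The interaction was higher for 25 and lower for 1 (26.7% and 27.1% of all genes). Their median response went from 0.38 to 1.52 log2 units. The median vehicle change was -0.70 and the median treated change 0.30. Of the 26 called interactions, treated and vehicle libraries moved apart in 16 and only the vehicle libraries changed in 7.

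Atf3, a stress-induced repressor of the same family (ENSMUSG00000026628, GRCm39 chromosome 1, 190902493 to 190950236), had 53.7, 54.2 and 47.2 CPM in vehicle and 83.5, 79.6 and 78.8 in treated libraries at 4 h, and 9.13, 9.199 and 9.81 in vehicle and 309, 309.7 and 347 in treated libraries at 24 h. No treated library overlapped a vehicle library. The interaction was 4.46 (SE 0.11, edgeR adjusted p = 3.66e-15), to which the vehicle libraries contributed a fall of their own (-2.46 log2 units) and the treated libraries a rise. Chac1, which breaks down glutathione, had 32.8, 40.2 and 42.3 CPM in vehicle and 124, 134 and 124 in treated libraries at 4 h, and 9.83, 9.495 and 8.58 in vehicle and 212, 203 and 227 in treated libraries at 24 h. It showed the same shape, with a vehicle change of -2.04, a treated change of 0.75 and an interaction of 2.79 (SE 0.13, edgeR adjusted p = 1.20e-11). Ppp1r15a, which restores translation by dephosphorylating eIF2-alpha, had an interaction of 3.06. Ddit3, the death-linked factor CHOP, had one of 2.06, and the secreted stress hormone Gdf15 one of 1.28.

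Atf4 itself was late at the RNA level. It had 286, 439.7 and 408 CPM in vehicle and 481, 469 and 478 in treated libraries at 4 h, and 208, 224 and 205 in vehicle and 586, 573 and 632 in treated libraries at 24 h. The treated libraries of 4 h lay just above all vehicle libraries, of which replicate 1 was low, and the 4 h response was not called (edgeR adjusted p = 0.0633), while the interaction was 1.16 (SE 0.16, edgeR adjusted p = 1.81e-05). The sustained members were Cebpb, Ddit4, Aldh18a1 and Gpt2, chosen after their values were seen, and Pycr1, an enzyme of proline synthesis, fell late (-0.56). The ATF4 site TGATGNAA was present in 9 of the 34 RefSeq windows found for 29 of these 32 genes (26.5%), beside 3.97% of all windows. The core of the antioxidant response element was present in as many of these windows (26.5%), beside 12.4% of all windows.

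Genes downstream and beside ATF4 responded less evenly. Of 19 cytosolic aminoacyl-tRNA synthetases, which load amino acids on tRNA, 14 interactions were higher and 3 lower, with a median of 0.61. Aars had the largest at 1.40 and Dars the lowest at -0.48. Of 26 chaperones and sensors of the endoplasmic reticulum, 2 were called at 4 h, and the interaction was higher for 12 and lower for 4 with a median of 0.16, or 0.02 under library totals. Over all genes 13.5% were called at 4 h, and the interaction was higher for 26.7% and lower for 27.1%. Hspa5, the lumenal HSP70 protein BiP, stood out with 1959, 1801 and 1635 CPM in vehicle and 2111, 1960.4 and 1935 in treated libraries at 4 h, and 1330.3, 1339 and 1225 in vehicle and 6531, 6852 and 7397 in treated libraries at 24 h. Its groups overlapped at 4 h and were far apart at 24 h, and the interaction was 2.26 (SE 0.11, edgeR adjusted p = 1.56e-11).

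Matrix genes fell late. Of 48 collagens and matrix genes, 4 were higher and 3 lower at 4 h, while 3 were higher and 41 lower at 24 h. Shares over all genes were 6.48% and 6.97% at 4 h and 33.7% and 35% at 24 h. The interaction was lower for 40 and higher for 2 (27.1% and 26.7% of all genes), with a median of -1.19. The median vehicle change was -0.04 and the median treated change -1.11. Col1a1, the main chain of type I collagen (ENSMUSG00000001506, GRCm39 chromosome 11, 94827050 to 94843868), had 5043, 5338 and 6067 CPM in vehicle and 5318, 6736 and 6633 in treated libraries at 4 h, and 5906, 5006 and 6308 in vehicle and 2239, 2072 and 2166 in treated libraries at 24 h. The groups overlapped at 4 h, and at 24 h every treated library lay under every vehicle library, an interaction of -1.59 (SE 0.14, edgeR adjusted p = 4.83e-08).

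Col11a1, a minor fibrillar collagen, had the most negative called interaction of the list, -3.03 (SE 0.14, edgeR adjusted p = 1.24e-11). It had 40.01, 41.6 and 47.3 CPM in vehicle and 39.7, 44.1 and 46.4 in treated libraries at 4 h, and 89.5, 77.8 and 88.5 in vehicle and 11.9, 10.3 and 9.44 in treated libraries at 24 h, so that the vehicle level went up and the treated level down. Postn, the myofibroblast protein periostin, had a smaller interaction of -0.45 (SE 0.10, edgeR adjusted p = 0.0011). Mfap5, a microfibril protein, responded late in the other direction, with a 24 h response of 0.53 and an interaction of 0.60. Serpinh1, the collagen chaperone HSP47 and 1 of 2 faded members with Col4a2, had 1117, 1439.5 and 1525 CPM in vehicle and 1847, 1902 and 1941 in treated libraries at 4 h, and 2307, 2244 and 2249.9 in vehicle and 2268, 2291 and 2298 in treated libraries at 24 h. It was above vehicle in all treated libraries at 4 h, and at 24 h the groups overlapped at the higher level. Both were chosen after their values were seen, and Col4a2 lost its interaction call without any of 5 libraries (edgeR adjusted p from 0.0572 to 0.0857) and its 4 h call without treated replicate 2 (0.128) or 3 (0.0959) of 4 h.

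Contractile genes and fibroblast identity genes followed the same time course. Of 15 contractile genes 1 was lower at 4 h and 13 at 24 h (6.97% and 35% of all genes). Among their interactions 12 were lower and none higher (median -0.89), beside 27.1% and 26.7% of all genes. Acta2, smooth muscle actin, had 996, 1152 and 1272 CPM in vehicle and 978, 1085 and 1036 in treated libraries at 4 h, and 1759, 1977 and 1695 in vehicle and 597, 640.3 and 629 in treated libraries at 24 h. The groups overlapped at 4 h, and at 24 h every treated library lay under every vehicle library, with an interaction of -1.40 (SE 0.12). Of 17 identity genes 10 interactions were lower and 2 higher (27.1% and 26.7% of all genes). Pdgfra had an interaction of -1.82 (SE 0.14), and Mgp, an inhibitor of calcification, the lowest at -3.14. Summed over 7 markers, pericyte and smooth muscle RNA was 86.5 to 96.0 CPM in vehicle and 81.7 to 101 CPM in treated libraries at 4 h, and 52.1 to 69.3 and 16.7 to 18.7 CPM at 24 h. None of the markers was at 0 in all libraries. Fewer cells of a type and less RNA per cell cannot be told apart in these bulk libraries, and the part of these cells in the contractile result was not tested.

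TGF-beta genes had more lower than higher interactions. Of 25, the interaction was lower for 12 and higher for 6, beside 27.1% and 26.7% of all genes. The median vehicle change was -0.60 and the median treated change -0.48. The falls held Tgfbi, a secreted matrix protein induced by TGF-beta (-4.28), and amplified falls of the ligand Tgfb3, the mediator Smad3, the target Ccn2 and the repressors Id2 and Id3. Smad7, an inhibitor of the pathway, was late with a higher interaction (1.08). Its unscaled counts, summed over 3 libraries, were 21975 in vehicle and 22641 in treated libraries at 4 h, and 14564 and 25553 at 24 h. The receptor gene Tgfbr1 had 124, 100 and 109 CPM in vehicle and 91.7, 78.2 and 82.4 in treated libraries at 4 h, and 64.1, 57.3 and 60.8 in vehicle and 74.1, 76.3 and 75.7 in treated libraries at 24 h. It was lower in all treated libraries at 4 h and higher in all at 24 h, with an interaction of 0.71, but its 24 h call was lost under scaling by library totals (edgeR adjusted p = 0.27). Tgfb3, Smad3, Ccn2, Id2, Id3 and Tgfbr1 were named after their values were seen, apart from Ccn2.

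Interferon genes were not called at 4 h and fell at 24 h. Of 34 tested, none was called at 4 h (13.5% of all genes), and 31 were lower and 2 higher at 24 h (35% and 33.7%). At an unadjusted p under 0.05 edgeR found 1 of the 34 higher and 2 lower at 4 h, and DESeq2 with adjusted p called 1 higher and 0 lower. The interaction was lower for 29 and higher for 1 (27.1% and 26.7% of all genes), with a median of -2.10. Leaving out any 1 library left 28 to 31 lower. The median vehicle change was 1.40 and the median treated change -0.79. Of 30 called interactions 13 had a called change in vehicle libraries alone.

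Ifit1, an antiviral RNA-binding protein, had 34.98, 48.2 and 82.00 CPM in vehicle and 42.95, 14.3 and 86.05 in treated libraries at 4 h, and 144, 97.2 and 70.7 in vehicle and 9.53, 4.48 and 4.21 in treated libraries at 24 h. Libraries of 4 h scattered widely and overlapped, and at 24 h all treated libraries lay far under vehicle. The interaction was -3.91 with a wide SE of 0.96 (edgeR adjusted p = 0.00829). B2m, the light chain of MHC class I, was the only listed gene with a called higher interaction (0.38), and its adjusted p was 0.109 under library totals. Macrophage and leukocyte markers shared the rise of the interferon genes in vehicle libraries between the times. In treated libraries the median change of the interferon genes was negative, whereas the summed markers rose. Summed over 14 markers they were 107.5 to 118.9 CPM in vehicle and 77.8 to 101.6 CPM in treated libraries at 4 h, and 391.5 to 463.7 and 172.1 to 196.1 CPM at 24 h. The interaction was lower for 10 of 13 tested markers (27.1% of all genes). No marker was at 0 in all libraries, and the part of these cells in the interferon result was not tested.

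Cytokine and NF-kappa-B genes had more lower than higher calls. Of 31 tested, none was higher and 7 were lower at 4 h, while 7 were higher and 16 lower at 24 h (33.7% and 35% of all genes), and the interaction was lower for 11 and higher for 6 (27.1% and 26.7% of all genes). At an unadjusted p under 0.05 edgeR found 2 of them higher at 4 h, and DESeq2 with adjusted p called 0. Il6, a cytokine that fibroblasts secrete in injury, had 22.6, 22.2 and 26.3 CPM in vehicle and 11.9, 6.85 and 8.42 in treated libraries at 4 h, and 16.6, 17.8 and 16.5 in vehicle and 2.85, 1.82 and 1.95 in treated libraries at 24 h. It was below vehicle in all treated libraries at both times and the gap grew, with an interaction of -1.56 (SE 0.25). Has2, which makes hyaluronan, behaved alike, from a response of -2.32 to -4.95 log2 units with an interaction of -2.63 (SE 0.23, edgeR adjusted p = 3.43e-08). Ptgs2, the inducible cyclooxygenase, had 3792, 3335 and 2812 CPM in vehicle and 3389, 3457 and 3081 in treated libraries at 4 h, and 394, 408 and 384 in vehicle and 1402, 1387 and 1366 in treated libraries at 24 h. Both arms fell between the times, the vehicle arm more, so that its interaction was 1.81 (SE 0.12) while its treated level at 24 h was under that at 4 h.

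Mitotic genes fell early and fell further. All 27 were lower at 24 h and 24 were lower at 4 h (35% and 6.97% of all genes). Their 27 interactions were all lower, with a median of -2.85, beside 27.1% of all genes. The median response went from -0.63 to -3.41 log2 units. Vehicle libraries rose by a median of 1.32 between the times while treated libraries fell by 1.54, and 25 of the 27 moved apart in this way. Ccna2, cyclin A2 (ENSMUSG00000027715, GRCm39 chromosome 3, 36619014 to 36626299), had 39.8, 35.6 and 45.3 CPM in vehicle and 24.1, 16.8 and 20.6 in treated libraries at 4 h, and 99.1, 94.5 and 91.03 in vehicle and 4.33, 4.31 and 2.84 in treated libraries at 24 h. The groups did not overlap at either time, and the interaction was -3.65 (SE 0.20, edgeR adjusted p = 4.54e-10).

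Cdc20, an activator of the anaphase-promoting complex, had 35.8, 45.4 and 50.6 CPM in vehicle and 25.3, 26.2 and 30.5 in treated libraries at 4 h, and 132, 131 and 129 in vehicle and 12.8, 14.7 and 13.2 in treated libraries at 24 h, and an interaction of -2.58 (SE 0.15). Cdk1, the mitotic kinase, had one of -2.44 (SE 0.15). The cell cycle homology region shown above for both was present in 17 of the 23 windows found for 22 of the 27 mitotic genes (73.9%), beside 17.9% of all windows. Cenpf, a kinetochore protein, had the most negative interaction of the amplified class, -4.30 (SE 0.22, edgeR adjusted p = 9.86e-11), and had 19.1, 16.7 and 24.2 CPM in vehicle and 14.5, 13.5 and 16.1 in treated libraries at 4 h, and 52.97, 48.7 and 58.4 in vehicle and 2.27, 2.26 and 1.37 in treated libraries at 24 h. Its 4 h call was close to the threshold (edgeR adjusted p = 0.0405), and without it the gene would count as late.

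Replication genes shared the direction but began later. Of 20 S phase genes 4 were lower at 4 h and 19 at 24 h (6.97% and 35% of all genes). Among their interactions 18 were lower and none higher (median -1.40), beside 27.1% and 26.7% of all genes. In 17 of the 18 the vehicle level rose and the treated level fell. Cdc6, which loads the replicative helicase, had -3.49. Among 10 G1 genes 7 interactions were lower and 1 higher (27.1% and 26.7% of all genes). Cyclin D1, encoded by Ccnd1, had -2.27, and Cdkn1a, the CDK inhibitor p21, was the 1 with a higher interaction (0.48, SE 0.10). Its unscaled counts, summed over 3 libraries, were 58339 in vehicle and 74518 in treated libraries at 4 h. At 24 h they were 43630 and 62871, so both arms fell. Of 27 p53 targets, to which Cdkn1a also belongs by function, 15 interactions were higher and 4 lower (26.7% and 27.1% of all genes). Their median was 0.30, with a median vehicle change of -0.40 and a median treated change of -0.08. Gadd45a, a growth arrest gene, had 1.96 and the death receptor gene Fas had -1.17.

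**Figure D3:**
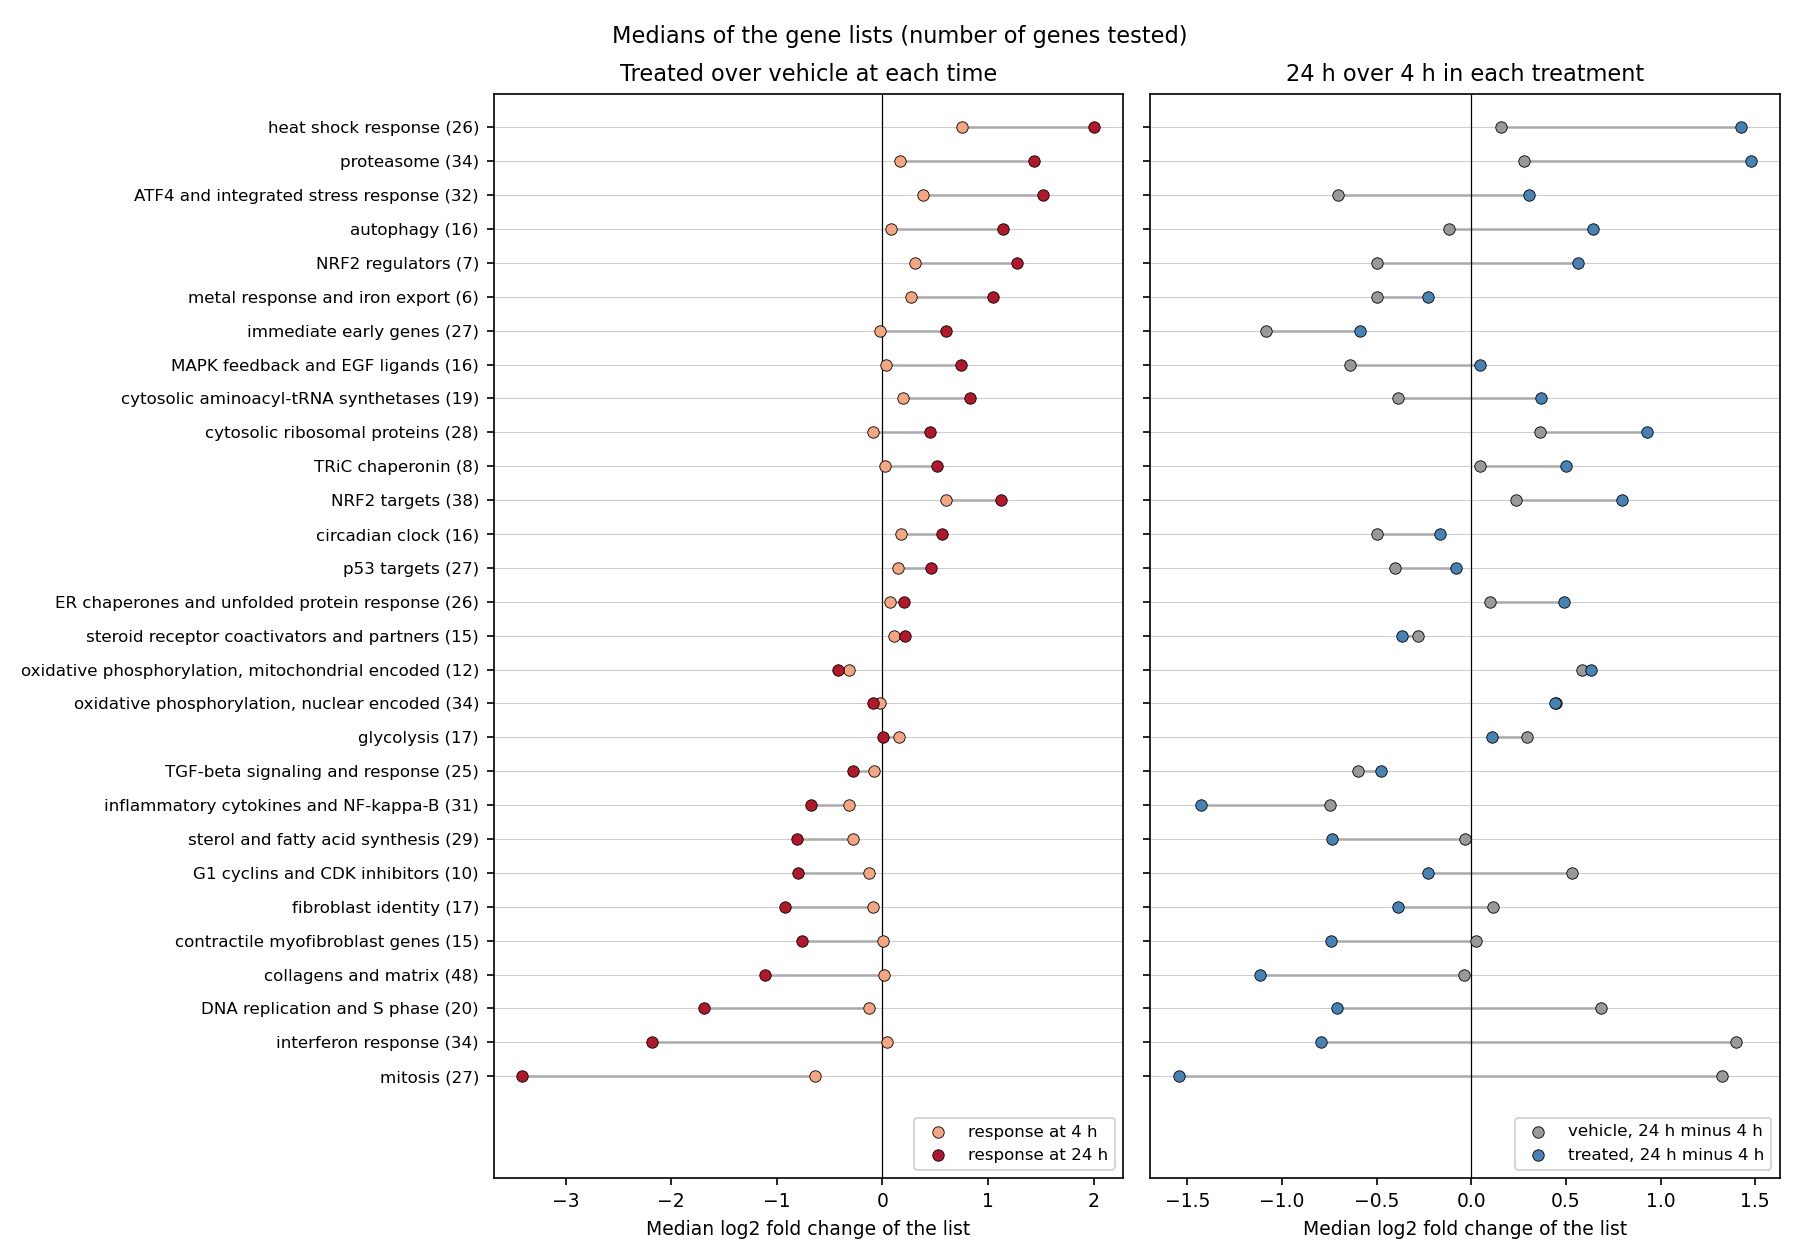
Medians of 29 gene lists, 1 line per list with its number of tested genes, ordered by the median interaction, on a linear axis in log2 units. The left panel joins the median 4 h response to the median 24 h response, and the right panel the median vehicle change to the median treated change from 4 h to 24 h. The mitosis list has the lowest 24 h median, -3.41, against -0.63 at 4 h, the heat shock list goes from 0.75 to 2.01, and on the right mitosis and S phase combine a positive vehicle change with a negative treated change.

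Immediate early genes and growth factor feedback genes mostly had higher interactions. Of 27 immediate early genes, which respond to serum within minutes, 5 were higher and 5 lower at 4 h and 16 higher and 8 lower at 24 h. The shares over all genes were 6.48% and 6.97% at 4 h and 33.7% and 35% at 24 h. The interaction was higher for 14 and lower for 6 (26.7% and 27.1% of all genes), with a median of 0.64. The median vehicle change was -1.08 and the median treated change -0.59. Egr1, a zinc finger factor of this group, had 622, 764 and 709.7 CPM in vehicle and 817, 1031 and 928 in treated libraries at 4 h, and 94.8, 96.4 and 95.1 in vehicle and 615, 667 and 535 in treated libraries at 24 h. Its treated change was -0.61 and its vehicle change -2.87 log2 units, so that the response went from 0.41 to 2.67 log2 units. Klf2 had the lowest interaction of the list (-1.31).

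Of 16 MAPK feedback and EGF ligand genes 13 interactions were higher and 1 lower (26.7% and 27.1% of all genes). In 2 of all 16 genes the treated change was larger than the vehicle change. Dusp5, a phosphatase that inactivates ERK in the nucleus (ENSMUSG00000034765, GRCm39 chromosome 19, 53517540 to 53530862), had 196, 194 and 168 CPM in vehicle and 141, 160.1 and 161 in treated libraries at 4 h, and 36.03, 37.98 and 35.1 in vehicle and 177, 178 and 168 in treated libraries at 24 h. The treated libraries were all below vehicle at 4 h and all above at 24 h, yet the treated change was 0.18 log2 units and the vehicle change -2.36. The response went from -0.27 (edgeR adjusted p = 0.0184) to 2.26, an interaction of 2.54 (SE 0.11, edgeR adjusted p = 5.09e-12). Its 4 h call was lost when the 4 h libraries were fitted alone (edgeR adjusted p = 0.101) and when vehicle replicate 2 (0.0553) or treated replicate 1 (0.076) of 4 h was left out.

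In the same list 3 genes faded after an early fall. Hbegf, a ligand of the EGF receptor, had 184, 189 and 198 CPM in vehicle and 126, 138 and 126 in treated libraries at 4 h, and 77.2, 81.6 and 68.6 in vehicle and 83.8, 74.3 and 72.6 in treated libraries at 24 h. All treated libraries were lower at 4 h, the groups overlapped at 24 h at a level under both 4 h groups, and the interaction was 0.57 (SE 0.11, edgeR adjusted p = 0.000243). Dusp6, a cytoplasmic ERK phosphatase, and Ereg, another EGF receptor ligand, faded with interactions of 0.73 and 0.53. The 4 h call of Ereg was lost without vehicle replicate 1 (edgeR adjusted p = 0.056), treated replicate 2 (0.0765) or treated replicate 3 (0.106) of 4 h, and without vehicle replicate 2 of 24 h it counted as reversed (0.0407 at 24 h). Hbegf, Dusp6 and Ereg were named after their values were seen. Spry1, a feedback inhibitor of the receptor, was the exception with a lower interaction (-1.80). Its unscaled counts, summed over 3 libraries, were 3761 in vehicle and 1202 in treated libraries at 4 h. At 24 h they were 11088 and 819, so the vehicle arm rose and the treated arm fell.

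Among reversed genes that had risen first and met the naming rule, Adm had the largest interaction. Adm encodes adrenomedullin, a vasodilator peptide (ENSMUSG00000030790, GRCm39 chromosome 7, 110226868 to 110229027), and had 37.8, 54.6 and 56.2 CPM in vehicle and 165, 148 and 179 in treated libraries at 4 h, and 153, 164 and 157 in vehicle and 95.02, 98.98 and 74.2 in treated libraries at 24 h. Treated libraries lay above vehicle at 4 h and below at 24 h without overlap, with a vehicle change of 1.67 and a treated change of -0.87 log2 units. The response turned from 1.73 to -0.82 log2 units, an interaction of -2.54 (SE 0.20, edgeR adjusted p = 2.28e-07). Adm was reversed under all 24 alternative settings. Kcne4, a potassium channel subunit, went from 0.70 to -1.58, with an interaction of -2.29 (SE 0.23), but its 4 h call was lost without vehicle replicate 1 of 4 h (edgeR adjusted p = 0.0782). Ephb3, a receptor for ephrins, had 13.2, 14.9 and 15.4 CPM in vehicle and 18.3, 19.97 and 22.97 in treated libraries at 4 h, and 23.3, 20.2 and 22.4 in vehicle and 9.44, 9.26 and 10.6 in treated libraries at 24 h. Both crossings were free of overlap, with an interaction of -1.67 (SE 0.16, edgeR adjusted p = 6.22e-08).

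Among genes that met the naming rule, the largest turns from lower to higher were those of Dusp5, Rgs16 and Zfp268. Rgs16, which shortens signals of G protein-coupled receptors (ENSMUSG00000026475, GRCm39 chromosome 1, 153616095 to 153621214), had 126, 157 and 134 CPM in vehicle and 79.5, 89.6 and 72.1 in treated libraries at 4 h, and 40.2, 43.6 and 35.03 in vehicle and 101, 91.1 and 102 in treated libraries at 24 h. The vehicle change was -1.81 and the treated change 0.29 log2 units, and the order of the arms turned without overlap. Its interaction was 2.10 (SE 0.14, edgeR adjusted p = 1.23e-09), and it was reversed under all 24 settings. Zfp268, a zinc finger gene with similar family members, had an interaction of 1.83 (SE 0.26). Its 4 h call was lost in the separate fit of the 4 h libraries (edgeR adjusted p = 0.119) and when vehicle replicate 1 (0.189), treated replicate 2 (0.153) or treated replicate 3 (0.121) of 4 h was left out.

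Ribosomal protein genes made up a group of small reversals and late rises. Of 28 listed, 4 were lower at 4 h and 25 higher at 24 h (6.97% and 33.7% of all genes). Among their interactions 22 were higher and none lower (26.7% and 27.1% of all genes), with a median of 0.54. For the contractile and S phase lists (0 higher interactions) and the ribosomal list (0 lower), edgeR at an unadjusted p under 0.05 and DESeq2 with adjusted p also gave 0. In 21 of the 22 both arms rose, the treated arm more. Rps27 had 136, 106 and 109 CPM in vehicle and 90.6, 67.5 and 66.7 in treated libraries at 4 h, and 194, 220.3 and 238 in vehicle and 334, 271 and 317 in treated libraries at 24 h, with an interaction of 1.14 (SE 0.19, edgeR adjusted p = 0.000172). All treated libraries were below vehicle at 4 h and above at 24 h. Its 4 h call was lost without vehicle replicate 1 of 4 h (edgeR adjusted p = 0.0604) and its 24 h call under library totals (0.0613). In the whole family of 80 tested ribosomal protein genes, 34 rose late, 10 reversed, 2 faded and 20 were not called in any comparison. These classes held 20.7%, 0.832%, 0.936% and 28.2% of all genes. Such genes have many processed copies in the genome, so their counts are uncertain.

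Sterol and fatty acid synthesis mostly fell. Of 29 genes 11 were lower at 4 h and 19 at 24 h (6.97% and 35% of all genes). The interaction was lower for 15 and higher for 4 (median -0.59), beside 27.1% and 26.7% of all genes. Scd2, a fatty acid desaturase, had the lowest at -2.01. Among the higher ones were Sc5d, Msmo1 and Acly, which makes acetyl-CoA (0.22) and was named after its values were seen. The call of Acly was lost without any of 10 libraries (edgeR adjusted p from 0.065 to 0.131). Msmo1, a sterol methyl oxidase, faded with 76.8, 59.2 and 54.3 CPM in vehicle and 37.9, 36.2 and 35.8 in treated libraries at 4 h, and 45.97, 41.2 and 48.3 in vehicle and 53.1, 50.04 and 55.3 in treated libraries at 24 h. It was below vehicle in all treated libraries at 4 h and above in all at 24 h without a 24 h call, an interaction of 1.02 (SE 0.15). Sc5d, a sterol desaturase, is counted as reversed (1.34, SE 0.12), but its 4 h groups overlapped and its 4 h call (edgeR adjusted p = 0.0434) was lost in 12 of 24 settings.

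Among faded rises that met the naming rule, the largest interactions were those of Ddit4l, Fkbp4 and Slc40a1. Slc40a1, the iron exporter ferroportin (ENSMUSG00000025993, GRCm39 chromosome 1, 45947228 to 45965683), had 3.69, 2.76 and 3.01 CPM in vehicle and 12.3, 7.97 and 10.7 in treated libraries at 4 h, and 5.897, 5.97 and 5.96 in vehicle and 11.1, 10.6 and 9.75 in treated libraries at 24 h. The vehicle change was 0.91 and the treated change 0.02 log2 units, so that the response went from 1.70 to 0.82 log2 units. Its interaction was -0.88 (SE 0.22, edgeR adjusted p = 0.00242), and it was faded under all 24 settings. Ddit4l, an inhibitor of mTOR signaling (ENSMUSG00000046818, GRCm39 chromosome 3, 137327373 to 137334094), had 12.3, 10.8 and 11.2 CPM in vehicle and 22.2, 18.3 and 22.1 in treated libraries at 4 h, and 17.3, 15.3 and 16.2 in vehicle and 12.9, 17.1 and 12.8 in treated libraries at 24 h. It was above vehicle in every treated library at 4 h and overlapped with vehicle at 24 h, with an interaction of -1.05 (SE 0.17, edgeR adjusted p = 4.81e-05). Among faded falls that met the naming rule the largest interactions were those of Nat2, an arylamine acetyltransferase (1.15, SE 0.28), Msmo1, and Ahrr, the repressor of the aryl hydrocarbon receptor (0.99, SE 0.32, edgeR adjusted p = 0.0145).

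The sustained genes with the largest responses under the naming rule, such as Map1a and Tnfsf15, were in none of the stress lists. Map1a, a microtubule-binding protein (ENSMUSG00000027254, GRCm39 chromosome 2, 121120081 to 121141313), had 44.97, 52.4 and 56.5 CPM in vehicle and 129, 146 and 148 in treated libraries at 4 h, and 77.3, 70.2 and 89.7 in vehicle and 279, 260.5 and 266 in treated libraries at 24 h. Treated libraries were all above vehicle at both times, both arms rose, and the responses were 1.46 and 1.76 log2 units. The interaction was 0.30 (SE 0.13, edgeR adjusted p = 0.0596), just outside the threshold, and it passed in 6 of 24 settings. Map7d2, another microtubule-binding protein, had responses of 3.25 and 3.43 with an interaction of 0.17 (SE 0.32). Tnfsf15, a cytokine of the TNF family (ENSMUSG00000050395, GRCm39 chromosome 4, 63642840 to 63663350), had 40.2, 33.96 and 29.7 CPM in vehicle and 5.88, 6.11 and 6.52 in treated libraries at 4 h, and 7.57, 8.74 and 8.58 in vehicle and 1.15, 1.23 and 0.709 in treated libraries at 24 h. It fell in both arms over time and was lower in every treated library at each time, with responses of -2.49 and -2.98 and an interaction of -0.49 (SE 0.23, edgeR adjusted p = 0.0826).

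Other sustained falls had wide errors and do not show equal responses. Spaar, a small lysosomal protein gene, had an interaction of -0.36 (SE 0.66), and Kctd12b, a potassium channel tetramerization domain gene, had -1.55 (SE 0.79, edgeR adjusted p = 0.119). The glucocorticoid receptor gene Nr3c1, named after its values were seen, was measured more closely. It had 319.7, 281 and 293 CPM in vehicle and 229, 224 and 219 in treated libraries at 4 h, and 180.5, 200.5 and 184 in vehicle and 132, 139 and 132 in treated libraries at 24 h. All treated libraries were below vehicle at each time, and the interaction of -0.08 had a 95% interval from -0.27 to 0.12.

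**Figure D4:**
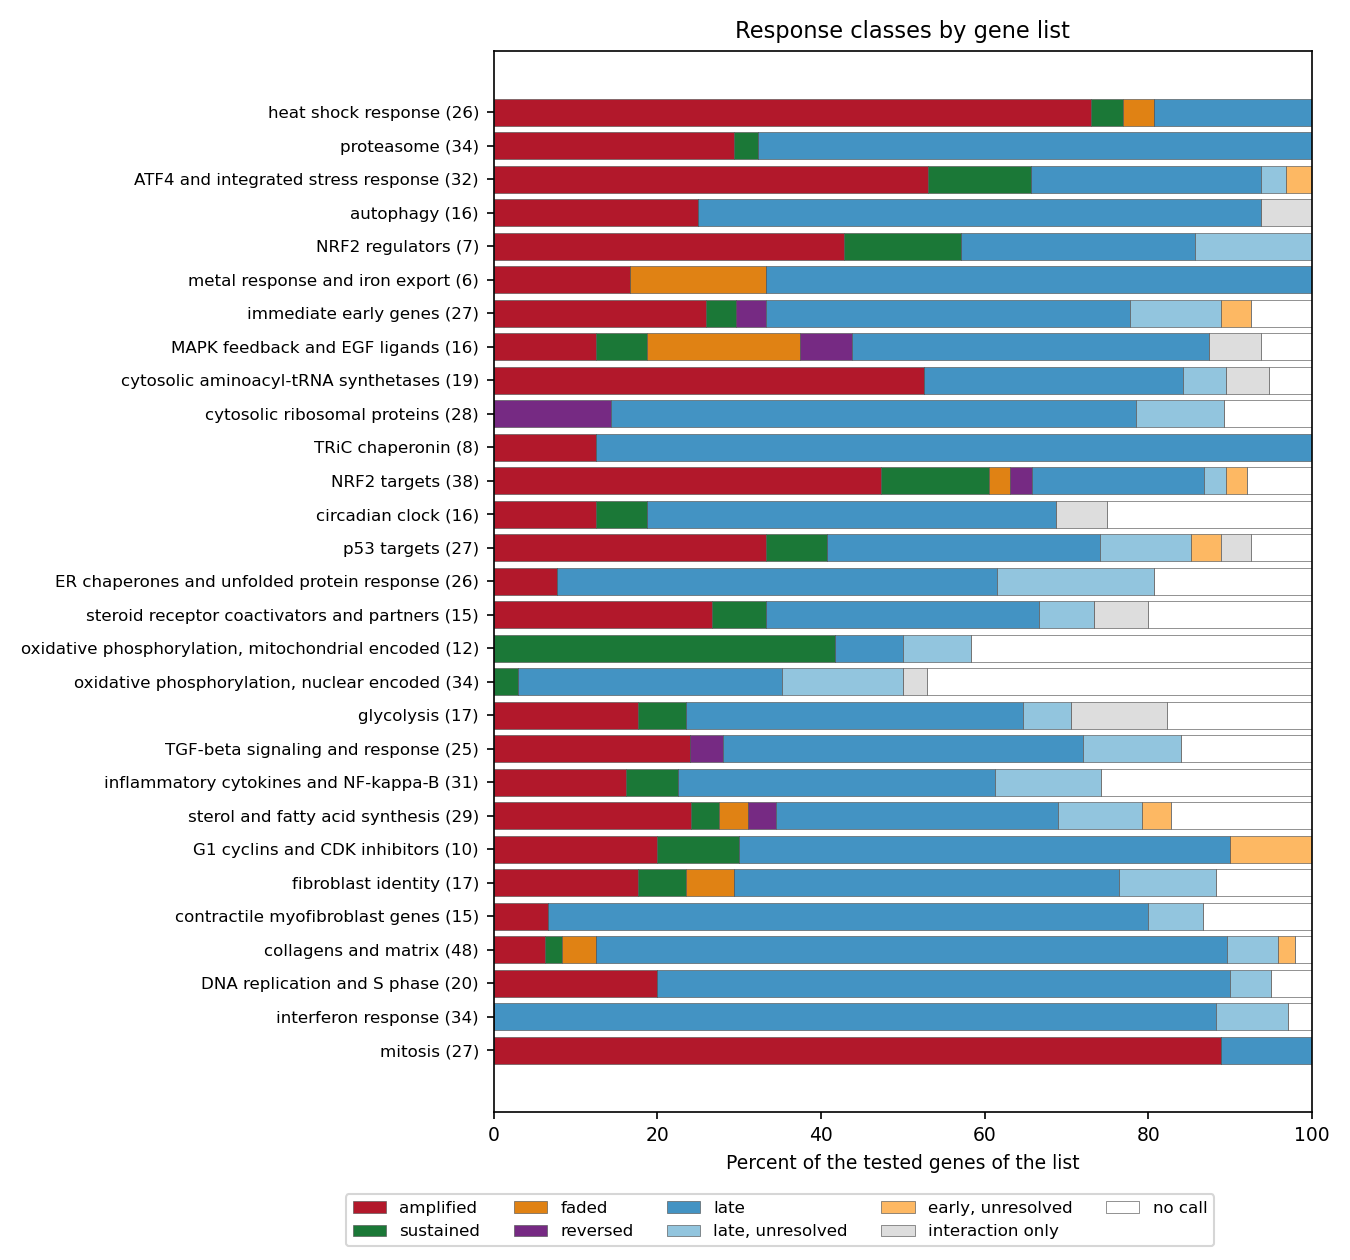
Share of each gene list's tested members in each response class, as stacked horizontal bars in percent of the list from 0 to 100. Mitosis, heat shock and ATF4 lists hold mostly amplified members, and interferon, collagen and proteasome lists mostly late members. Faded or reversed members appear as thin segments, chiefly in the MAPK feedback, metal response and iron export, and ribosomal lists.

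The largest interaction among amplified genes that met the naming rule was that of Star. Star carries cholesterol into mitochondria for steroid synthesis (ENSMUSG00000031574, GRCm39 chromosome 8, 26296583 to 26306010) and had 16.1, 17.9 and 11.9 CPM in vehicle and 40.6, 39.1 and 32.8 in treated libraries at 4 h, and 3.72, 3.59 and 2.98 in vehicle and 398, 383 and 383 in treated libraries at 24 h. The treated libraries lay above vehicle at both times, the treated change was 3.37 and the vehicle change -2.16 log2 units, and the interaction was 5.53 (SE 0.18, edgeR adjusted p = 2.54e-12). Ppp1r16b, a regulatory subunit of protein phosphatase 1, followed with 5.08 (SE 0.26). Slc22a3, an organic cation transporter, rested on few vehicle counts. At 24 h its vehicle libraries held 3 counts in all and its treated libraries 529, a ratio of 201.0 after scaling for library size with an exact 95% counting interval from 68.4 to 977.8.

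Among late rises that met the naming rule, Mt3, Nppb and Atp13a4 had the largest interactions. Nppb, the natriuretic peptide B gene that is best known from stressed cardiomyocytes, had 1.65, 1.58 and 0.969 CPM in vehicle and 1.25, 0.926 and 0.986 in treated libraries at 4 h, and 0.619, 0.231 and 0.181 in vehicle and 23.8, 19.6 and 17.1 in treated libraries at 24 h. The 4 h groups overlapped at about 1 CPM and the treated libraries of 24 h stood alone, with an interaction of 6.23 (SE 0.42, edgeR adjusted p = 1.82e-09). Of the other 7 cardiomyocyte markers 5 were too low to be tested, Tnnt2 had a negative interaction (-1.42) and Ryr2 had no called interaction. Whether these markers rose as a group could not be tested. Atp13a4, a cation-transporting ATPase, had 5.90 (SE 0.48). Mt3, a metallothionein, held 1 vehicle count in all and 489 treated counts at 24 h, and its interaction lost its call without vehicle replicate 2 of 4 h (edgeR adjusted p = 0.898). Mt1, an abundant metallothionein, had an interaction of 2.13 (SE 0.23).

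Among late falls that met the naming rule, Gas1, Olfml1 and Pdlim3 had the largest interactions. Gas1, a growth arrest gene and hedgehog coreceptor, had 1.46, 1.44 and 3.59 CPM in vehicle and 3.07, 2.704 and 3.63 in treated libraries at 4 h, and 46.8, 23.8 and 63.5 in vehicle and 2.598, 1.06 and 0.266 in treated libraries at 24 h. Its groups overlapped at 4 h and were apart at 24 h, with an interaction of -5.64 (SE 0.90). Pdlim3, a protein of actin anchoring sites, had -5.17 (SE 0.87). Olfml1, a secreted glycoprotein, lost its interaction call without treated replicate 1 of 4 h (edgeR adjusted p = 0.0826).

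The steroid receptor coactivators named in the title of the series and their partners had calls in both directions. Of 15 coactivators and partners, 4 were higher and 1 lower at 4 h and 7 higher and 4 lower at 24 h. Shares over all genes were 6.48% and 6.97% at 4 h and 33.7% and 35% at 24 h. The interaction was higher for 6 and lower for 4, beside 26.7% and 27.1% of all genes, with a median of 0.10, which turned to -0.04, with 2 higher and 4 lower, under library totals. Ncoa3, which encodes SRC-3, had 59.6, 57.3 and 60.4 CPM in vehicle and 68.4, 69.98 and 66.1 in treated libraries at 4 h, and 47.9, 47.4 and 50.9 in vehicle and 71.2, 73.1 and 72.6 in treated libraries at 24 h. It was higher in all treated libraries at both times, with an interaction of 0.36 (SE 0.09, edgeR adjusted p = 0.00248). Its class depended on a 4 h call near the threshold (edgeR adjusted p = 0.0421), kept in 8 of 24 settings, and its interaction call was lost under library totals (edgeR adjusted p = 0.0502). Ncoa1, encoding SRC-1, had an interaction of 0.10 (SE 0.11, edgeR adjusted p = 0.437), and Ncoa2, encoding SRC-2, had -0.44 (SE 0.10, edgeR adjusted p = 0.000676). Crebbp, the acetyltransferase CBP that these coactivators recruit, was amplified (0.63). Its unscaled counts, summed over 3 libraries, were 9020 in vehicle and 10612 in treated libraries at 4 h, and 7515 and 11077 at 24 h.

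For some named genes the class turned on 1 library, and the values that follow are edgeR adjusted p. Without vehicle replicate 1 of 4 h, the 4 h response was called for Acta2 (0.0235), Hspa5 (0.0283), Klf2 (0.0191), Nfe2l2 (0.0273) and Mt1 (1.42e-05), the 24 h response for Fkbp4 (0.000345) and Msmo1 (0.00697), and the interaction for Map1a (0.00715), Cebpb (0.00349) and Tnfsf15 (0.0209). Without vehicle replicate 2 of 4 h the 4 h response was called for Atf4 (0.00877), Maff (0.02) and Ugdh (0.0312), and without vehicle replicate 3 for Ephx1 (0.0398), as were the 24 h response of Msmo1 (0.0418) and the interaction of Nfe2l2 (0.0421). Without treated replicate 1 of 4 h it was called for Col1a1 (0.0476), as a rise, and for Pycr1 (0.0393), and the interaction was called for Nfe2l2 (0.0374) and Dnajb4 (0.0321). The 24 h call of Pycr1 was lost without treated replicate 1 (0.0668) or vehicle replicate 2 (0.0779) of 24 h. Without treated replicate 2 of 4 h the 4 h call was lost for Ccnd1 (0.0557), Crebbp (0.0842) and Egr1 (0.0531), and without replicate 3 for Ccnd1 (0.0717). Without treated replicate 3 of 24 h Pdgfra (0.0175) and Scd2 (0.0176, and 0.0301 without treated replicate 1) were called at 4 h, and without treated replicate 2 of 24 h Ddit4l was called lower at 24 h (0.0226). The interaction of Nqo1 was called without treated replicate 1 (0.0279) or vehicle replicate 3 (0.0231) of 24 h, that of Kctd12b without treated replicate 1 (0.000806) that of Ddit4 without vehicle replicate 2 (0.0201) and that of Map1a without vehicle replicate 3 (0.0165) of 24 h.

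Other 4 h calls were near the threshold and were lost without any of several libraries. This held for Ncoa3 (11 libraries), Sc5d (10), Cebpb (10), Cenpf (9), Psmb3 (7), Dars (7), Kctd12b (6) and Nqo1 (4). Over these libraries the adjusted p of edgeR's quasi-likelihood test ran from 0.0501 to 0.183 for Cenpf, from 0.0506 to 0.104 for Psmb3 and from 0.0738 to 0.0854 for Nqo1. By contrast, Hmox1, Slc7a11, Pgd, Keap1, G6pdx, Ccna2, Cdc20, Cdk1, Il6, Has2, Star, Serpinh1, Slc40a1, Hbegf, Ephb3, Rgs16 and Adm kept their class in all 24 settings.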

How the data were processed

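RNA of cultured mouse cardiac fibroblasts was sequenced in 12 libraries, 3 in each of 4 groups, grouped by the treatment and time in the labels. The deposited tables held, per the file headers, raw read counts per gene and library together with FPKM (counts scaled by the authors for gene length and library size) and the authors' own comparisons. Tools named per the submitters' processing notes, with no role or order, are HISAT2 2.0.5, featureCounts 1.5.0-p3 and DESeq2, with genome build GRCm39. Whether counting used strand is not given in the sources used here, so overlapping and antisense genes are not separated. The FPKM values of the 2 times were normalized separately by the authors and entered no test.

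The deposited counts of both times were joined by gene identifier (24230 genes in both tables, and 9 tested genes in only 1, entered as 0 in the other). They were tested with edgeR 4.0.16 (limma 3.58.1, R 4.3.3) using its default filter of low counts, TMM scaling over all 12 libraries and robust quasi-likelihood fits of 4 group means without a replicate block. Benjamini-Hochberg adjustment covered 16341 genes, called under 0.05. CPM are counts scaled to a common library size with TMM factors, and log2 fold changes are edgeR estimates with SE. With 25016754 to 34877090 counts per library, counting error was small except for genes under about 1 CPM. The procedure was tested on simulated data with 200 of 16341 genes changed, in treated libraries of 24 h alone. It recovered 58% of changes of 1 log2 unit and 81% of changes of 2, and 5.44% of its calls were false. Far more genes were called in the real data, so these rates need not hold there. Alternatives were RLE size factors, library totals, TMM within each time, DESeq2 1.42.0, no low-count filter, a mean CPM filter, genes of both tables only, separate fits per time, 2 replicate blocks, an adjusted p under 0.01, leaving out each library and, chosen after seeing the data, leaving out the 18S ribosomal RNA row.

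The members, gene lists, classes and tests were chosen with earlier results of these data known. Named genes were protein-coding, with a mean of at least 5 CPM in a group. They were the 3 with the largest interaction per class and direction (for sustained genes, the largest mean response), the 2 extreme called members of each list, and a fixed set of well-known genes. Not every gene that met this rule is reported here. Slc7a11, Pgd, Ppp1r15a, Hspe1, Cdc20, Cdk1 and Pdgfra were further examples, chosen after their values were seen. Promoter windows and symbols were matched to RefSeq GRCm38.p6 by symbol, which found 70.2% of tested genes, so motif shares are given only for lists with a window for at least 80% of members.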

Additional observations from a re-analysis of the deposited data

Results flagged for a closer look

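The response differed between the 2 times by a called interaction for 8796 genes, by edgeR's quasi-likelihood test with Benjamini-Hochberg adjustment. Among the genes named by rule or in the fixed set, 9 were called in opposite directions at 4 h and 24 h. Tgfbr1, named after its values were seen, also reversed, from lower to higher. The interaction was negative, from higher to lower, for Adm (-2.54), Kcne4 (-2.29), Ephb3 (-1.67) and G6pdx (-0.91). It was positive, from lower to higher, for Dusp5 (2.54), Rgs16 (2.10), Zfp268 (1.83), Sc5d (1.34) and Rps27 (1.14). The directions of Adm, Ephb3, G6pdx and Rgs16 at both times were called in all 24 settings, and those of the others were not.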

How the results depend on the processing

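The count of called interactions (8796) lay between 6887 at an adjusted p under 0.01 and 9120 over the alternatives, and every interaction called both in the main and in an alternative setting had the same sign. Leaving out 1 library gave 8114 to 9120 called interactions, 4031 to 4549 higher and 4050 to 4571 lower. The classes that need a 4 h call were less stable. Leaving out 1 library gave 624 to 1246 higher and 600 to 1278 lower calls at 4 h, 802 to 1577 amplified, 277 to 668 sustained, 69 to 223 faded and 44 to 258 reversed genes, with the lowest 4 h counts without treated replicate 2 of 4 h. With each response fitted on its own 6 libraries there were 529 higher and 569 lower calls at 4 h, and 230 sustained, 739 amplified, 65 faded and 43 reversed genes. At an adjusted p under 0.01 there were 538 and 498 calls at 4 h, and 262 sustained, 651 amplified, 49 faded and 29 reversed genes. Of 515 sustained and 136 reversed genes, 223 and 36 kept their class in the separate fits. Of 2568 named gene values under alternatives, 21 lost and 20 gained their call and 6 moved, and no called interaction changed direction. The uncalled interactions of Keap1, Ncoa1 and Fbxo40 changed sign in some settings (down to -0.04, -0.04 and -0.33). Medians of the lists changed sign under library totals for coactivators (-0.04) and for oxidative phosphorylation (-0.13 nuclear, -0.08 mitochondrial).

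Replicate numbers went with a weak pairing of the libraries at 4 h and none that was clear at 24 h. Deviations of same-numbered vehicle and treated libraries correlated with r = 0.07, 0.06 and 0.09 at 4 h and 0.02, 0.01 and -0.03 at 24 h. At 4 h every library correlated best with its own number, and pairs of unlike number had r from -0.09 to 0.02. With a replicate block within each time point 8882 interactions were called and 313 genes counted as reversed. That block gave 1358 higher and 1457 lower calls at 4 h, against 1059 and 1139 in the main fit, which had no block. With a replicate block over all 12 libraries 8787 interactions were called and 168 genes counted as reversed. Depth limits folds of genes near 0 in an arm, such as Slc22a3 and Mt3. Time of harvest and any difference in preparation cannot be told apart.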

Other observations

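Clock genes, which keep the daily rhythm of cells, had more higher than lower interactions. Of 16 clock genes the interaction was higher for 8 and lower for 3 (median 0.30), beside 26.7% and 27.1% of all genes. The median vehicle change was -0.50 and the median treated change -0.16. Per1, a repressor of the clock loop, had 56.8, 64.1 and 59.2 CPM in vehicle and 63.8, 80.3 and 65.6 in treated libraries at 4 h, and 33.7, 36.04 and 32.8 in vehicle and 123, 113 and 113 in treated libraries at 24 h, and Dbp, an output factor of the clock, had 5.79, 11.3 and 10.98 CPM in vehicle and 9.197, 14.5 and 11.9 in treated libraries at 4 h, and 13.3, 15.1 and 17.7 in vehicle and 1.69, 2.62 and 1.73 in treated libraries at 24 h. The groups of Per1 did not overlap at 24 h, where treated libraries were higher, and those of Dbp did not overlap at 24 h, where treated libraries were lower. The interactions were 1.55 (SE 0.12) and -3.25 (SE 0.37).

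Energy metabolism showed no common course, and its shares of called interactions are to be read beside 26.7% higher and 27.1% lower over all genes. Of 34 nuclear genes of oxidative phosphorylation 5 interactions were higher and 7 lower, both below those shares (median 0.01, and -0.13 under library totals), and of 12 mitochondrial ones 1 was lower, while 5 were sustained falls. Of 17 glycolysis genes 5 were higher and 7 lower. Slc2a1, a glucose transporter, had an interaction of 0.84 and Pdk1, which restrains pyruvate oxidation, one of -1.33. Gapdh, often used as a reference gene, had 6.64, 6.39 and 50.7 CPM in vehicle and 80.8, 97.2 and 9.72 in treated libraries at 4 h, and 7.62, 140.3 and 54.1 in vehicle and 15.6, 99.6 and 12.6 in treated libraries at 24 h. Its libraries scattered widely within every group. Gapdh has many processed copies in the genome, and its counts are uncertain.

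Epicardial markers summed to 68.4 to 80.7 CPM in vehicle and 65.2 to 73.1 CPM in treated libraries at 4 h, and to 78.2 to 91.7 and 31.4 to 40.1 CPM at 24 h. Endothelial markers summed to 49.1 to 62.8 CPM over all libraries while their members moved both ways. At 24 h 4 of the 10 were higher and 6 lower (33.7% and 35% of all genes). The interaction was higher for 2 and lower for 5 (26.7% and 27.1% of all genes).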
